A study of Homo sapiens with 6 samples.

Results

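The genes for the protein subunits of the mitochondrial ribosome were followed after depletion of menin in an erythroid cell line. Members were all genes of the deposited tables whose symbol is MRPL or MRPS followed by a number, with or without a letter A to C, which gave 78 of 62754 genes. The matching rule used symbols and no measured value, although the list was chosen with earlier results of these data known. By subunit, 51 of the 78 encode proteins of the large subunit and 26 encode proteins of the small subunit. MRPS36 carries an MRPS symbol although its product is now placed in the 2-oxoglutarate dehydrogenase complex of the citric acid cycle. The symbol does not always give the subunit: MRPS30 and MRPS18A sit in the large subunit and were counted there.

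The cells were HUDEP-2, an immortalised line of human erythroid progenitors that produces mostly adult hemoglobin. All 6 libraries came from HUDEP-2 cells infected with lentivirus, 3 with a hairpin against MEN1, labelled MEN1sh2, and 3 with the control hairpin Controlsh. The labels give the genotype as MEN1 knockdown for the former and WT for the latter, and number 3 biological replicates in each group. Both groups were grown with 3 units/ml erythropoietin, 50 ng/ml stem cell factor, 1e-06 M dexamethasone and 1 µg/ml doxycycline. Puromycin selection at 2 µg/ml started 24 h after infection and lasted 48 h, with harvest at 72 h. A single MEN1 hairpin in a single cell line was used, so loss of menin and off-target action of that hairpin cannot be told apart. Because nothing states that replicates were grown from separate starting cultures, the p-values measure the spread between these libraries, which may be partly technical. The series addresses how the MLL1 complex, which contains menin, helps to silence fetal hemoglobin in adult-type erythroid cells.

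Mitochondria keep a small genome that encodes core subunits of the respiratory chain and ATP synthase, together with the ribosomal and transfer RNAs needed to translate them. Every protein of the mitochondrial ribosome is encoded in the nucleus, made in the cytosol and imported. Many of these proteins have a counterpart in the bacterial ribosome, while others are found only in mitochondria. Erythroid precursors need working mitochondria for heme, whose synthesis begins and ends inside the organelle, and they clear their mitochondria as they mature into red cells.

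The promoter windows of 4 genes are shown because they belong to the genes with the largest falls and the largest rises described below. Each window runs from 250 bases before to 50 bases after a RefSeq transcription start on GRCh38.p14, 300 bases in all, and is written 5′ to 3′ on the strand of the gene. Capitals mark letters that match, on either strand, the GABP/ETS letters CCGGAAG, the YY1 letters AAGATGGC or the SP letters GGGCGG. The windows of MRPS26 (chr20:3045802-3046101, plus strand) and MRPS12 (chr19:38930694-38930993, plus strand) belong to genes that fell. Those of MRPS10 (chr6:42217812-42218111, minus strand) and MRPL28 (chr16:370489-370788, minus strand) belong to genes that rose.
MRPS26: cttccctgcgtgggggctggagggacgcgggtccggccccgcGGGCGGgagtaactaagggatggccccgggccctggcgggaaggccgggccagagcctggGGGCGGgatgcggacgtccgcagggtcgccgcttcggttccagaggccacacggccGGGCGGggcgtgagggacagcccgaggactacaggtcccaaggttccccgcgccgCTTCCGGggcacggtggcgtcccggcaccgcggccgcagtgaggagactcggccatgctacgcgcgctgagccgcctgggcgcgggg
MRPS12: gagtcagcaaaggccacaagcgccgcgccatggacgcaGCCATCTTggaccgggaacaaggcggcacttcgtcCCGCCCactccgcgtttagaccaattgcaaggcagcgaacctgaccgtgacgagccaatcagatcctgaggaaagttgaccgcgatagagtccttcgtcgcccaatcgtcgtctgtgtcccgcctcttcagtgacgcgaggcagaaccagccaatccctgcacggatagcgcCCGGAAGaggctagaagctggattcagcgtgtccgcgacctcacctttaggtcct
MRPS10: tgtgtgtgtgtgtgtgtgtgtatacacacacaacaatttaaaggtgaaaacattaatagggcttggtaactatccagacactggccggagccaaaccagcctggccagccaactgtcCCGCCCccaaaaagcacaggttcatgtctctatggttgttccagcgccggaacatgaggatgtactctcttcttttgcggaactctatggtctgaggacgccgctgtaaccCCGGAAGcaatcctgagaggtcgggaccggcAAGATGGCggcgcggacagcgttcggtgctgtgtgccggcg
MRPL28: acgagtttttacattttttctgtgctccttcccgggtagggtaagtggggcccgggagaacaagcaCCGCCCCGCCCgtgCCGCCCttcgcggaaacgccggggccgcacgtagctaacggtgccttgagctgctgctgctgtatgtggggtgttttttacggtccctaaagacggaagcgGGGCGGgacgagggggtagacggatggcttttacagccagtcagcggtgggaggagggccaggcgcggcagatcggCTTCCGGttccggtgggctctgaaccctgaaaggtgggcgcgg
All 4 windows, of genes that fell and of genes that rose, hold GABP/ETS letters and SP letters. The YY1 letters occur in the windows of MRPS12 and MRPS10, upstream and on the opposite strand in the former and just after the start in the latter.

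Expression is given as TPM, the length-scaled share of a gene in each library's transcripts, so a value falls when other transcripts take a larger share. MEN1 checked the labels first. Its TPM was 6.29, 6.44 and 6.88 with the MEN1 hairpin and 41.2, 39.6 and 37.1 in the controls, a log2 fold change of -2.42 (SE 0.0803, adjusted p 8.54e-06 in limma). Aligned bases, inferred from the ratio of coverage to FPKM, ran from 5560000000 to 10810000000 per library, and 13865 to 14361 genes reached 1 TPM. Median read depth over the mitoribosomal genes was 72.2 to 184 reads per base in the deposited coverage, which did not follow TPM gene by gene. Globin transcripts took 9.21% to 10.4% of TPM with the MEN1 hairpin and 5.23% to 5.78% in controls. The cell type markers were checked in the same tables. All 10 erythroid markers were expressed, and 7 of the 10 rose with the MEN1 hairpin, against 22.1% of all genes tested. The 7 include the globin genes HBB, HBA1 and HBA2. KLF1, GATA1 and EPOR did not pass, at log2 fold changes of -0.05, 0.06 and 0.02. Summed TPM of the 5 T and B lymphoid markers was 4.92 ± 0.878 with the MEN1 hairpin and 1.08 ± 0.185 in controls, most of it CD3D at 4.40 and 0.397, with MS4A1 at 0. The 4 monocyte and macrophage markers summed to 0.647 and 2.19, the 3 granulocyte markers to 0.109 and 2.28, and the 3 fibroblast markers to 0.123 and 1.58, the last mainly from control replicate 2. The megakaryocyte markers PF4 and PPBP were at 0. Of the 4 epithelial markers, KRT8 was at 0.262 with the MEN1 hairpin and 0.0832 in controls, and KRT18 at 4.69 ± 1.37 and 3.45 ± 0.600. EPCAM and CDH1, which erythroid progenitors also express, were at 132 ± 9.51 and 88.8 ± 0.988 with the MEN1 hairpin and at 239 ± 7.46 and 99.2 ± 3.80 in controls, and both fell (adjusted p 6.4e-05 and 0.0418 in limma). The part of these shifts in the results below was not tested, and in bulk RNA a smaller number of cells of 1 state cannot be told apart from less RNA per cell.

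Most mitoribosomal genes were lower after menin depletion. All 78 passed the filter on low values, set at 1 TPM in 3 or more libraries, and 67 of the 78 had a negative log2 fold change. With limma on log2(TPM + 1) and Benjamini-Hochberg adjustment over all 14294 genes tested, 51 of the 78 passed an adjusted p of 0.05, against a background of 53.6% of all genes. Of these, 46 (59.0% of the 78) fell, against 31.5% of all genes, and 5 (6.41%) rose, against 22.1% of all genes. Another 27 did not pass. A fall of at least 2-fold was reached by 5 members past the threshold, against 6.9% of all genes, and a rise of 2-fold by none. The median log2 fold change was -0.37 for the 78 genes and -0.07 for all genes tested. Values ran from -1.51 to 0.53.

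In 50 of the 78 genes every library with the MEN1 hairpin was below every control library, against 35.9% of all genes, and in 5 every one was above, against 25.8%. Summed over the 78 genes, TPM was 6204, 6019 and 5946 with the MEN1 hairpin and 7550.4, 7659 and 7625 in the controls. The means were 6056 ± 133 and 7611 ± 55.4 (SD, n = 3 each), or 79.6% of the control level, and the groups did not overlap. Rescaling moved the size but not the direction. The median log2 fold change of the 78 genes was -0.28 under median-of-ratios scaling, where the median of all genes lay at 0.01, and -0.30 when globin and mitochondrial genes were left out of the TPM sum. The number of mitoribosomal genes lower past the threshold was then 40 and 42. Over all 14294 genes tested, 7596 and 7541 then passed, of which 49.5% and 47.3% were higher, against 41.2% without rescaling. The background share of genes that fell therefore moved with the scaling too.

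**Figure D1:**
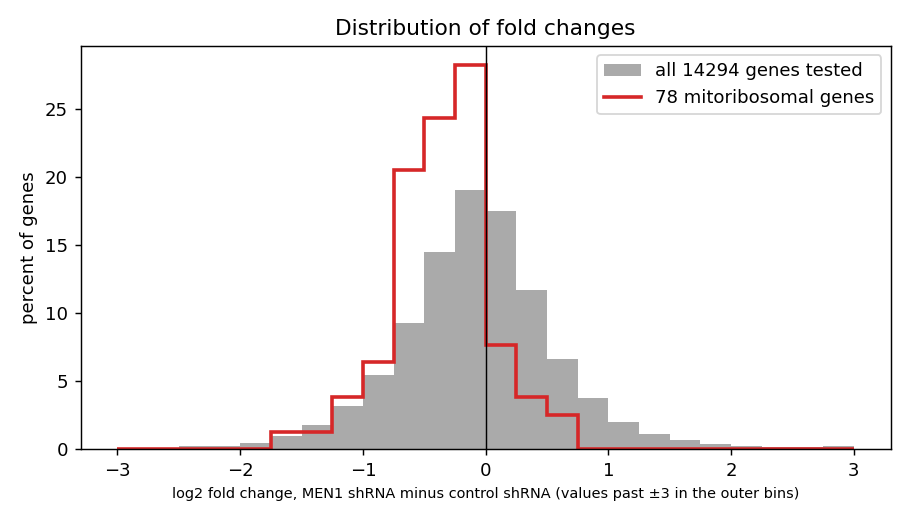
Distribution of log2 fold changes (MEN1 shRNA minus control, on log2(TPM + 1)) for the 78 mitoribosomal genes and for all 14294 genes tested. The mitoribosomal genes are shifted to the left, with a median of -0.37 against -0.07.

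**Figure D2:**
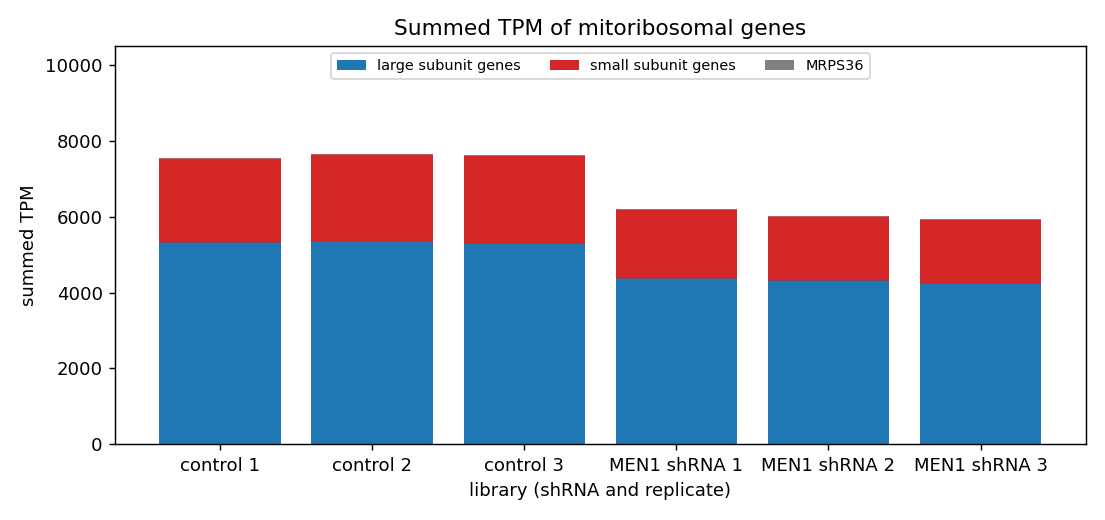
Summed TPM of the mitoribosomal genes in each library, stacked by subunit, with the axis starting at 0. The 3 MEN1 shRNA libraries reach 5946 to 6204 and the 3 control libraries 7550.4 to 7659.

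TPM is scaled for length, so levels can be compared between genes. The control mean of the 78 genes had a median of 87.3 TPM, and 55 of the 78 lay within 2-fold of it. The highest control mean was 18.5-fold above the lowest. At the top were MRPL3 at 281 ± 9.41 TPM and MRPL16 at 280 ± 13.9, which did not differ beyond their spread, followed by MRPL4 at 252 ± 6.60 and MRPL12 at 241 ± 8.29. MRPL3, MRPL4 and MRPL16 are large-subunit proteins with bacterial counterparts, and MRPL12 is the stalk protein described below. At the bottom were MRPL42 at 15.2 ± 1.62, MRPS14 at 16.4 ± 1.54, MRPL19 at 28.7 ± 1.44 and MRPS5 at 29.3 ± 2.49, where neighbours within each pair again overlapped. Of these 4 low genes, MRPS14, MRPL19 and MRPS5 fell and MRPL42 had a log2 fold change of -0.20 (adjusted p 0.276 in limma).

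The order of the genes was largely kept between groups. Across the 78 genes, Spearman's rho between the mean TPM of the groups was 0.89, a description over genes of the same libraries. MRPL4 moved from rank 3 in controls to rank 16 with the MEN1 hairpin, MRPL12 from rank 4 to rank 13 and MRPS12 from rank 25 to rank 61. MRPS10 moved the other way, from rank 20 to rank 7, and MRPL28 from rank 19 to rank 6. Spearman's rho between the control level and the log2 fold change was -0.04 across the 78 genes. Genes at or above 100 TPM in controls had 19 of 28 lower (67.9%, against 31.5% of all genes) and 2 higher. Those under 100 TPM had 27 of 50 lower (54.0%) and 3 higher. The spread of levels within a library, as the SD of log2 TPM over the 78 genes, was 0.955 to 1.01 with the MEN1 hairpin and 0.913 to 0.918 in controls. Between replicates the SD of a gene was typically 5.81% of its mean with the MEN1 hairpin and 5.71% in controls.

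In the small subunit, 16 of 26 genes fell (61.5%, against 31.5% of all genes) and 1 rose. The median log2 fold change was -0.48, and summed TPM was 76.5% of control. The largest fall among the 78 genes was that of MRPS26 (ENSG00000125901, chr20:3046052-3048250), a subunit found only in mitochondrial ribosomes. Its TPM was 29.2, 26.4 and 23.4 with the MEN1 hairpin and 83.0, 80.4 and 67.6 in the controls. The highest depleted library lay far below the lowest control, and the level was 34.2% of control (log2 fold change -1.51, SE 0.107, adjusted p 4.57e-05 in limma). MRPS12 (ENSG00000128626, chr19:38930944-38933168) encodes the mitochondrial form of bacterial S12, a protein of the decoding centre. It measured 49.9, 43.4 and 40.4 TPM against 108.9, 105.7 and 109.8 TPM. The control libraries were nearly equal, the groups were well apart, and 41.2% of the control level was left (log2 fold change -1.26, SE 0.0826, adjusted p 3.51e-05 in limma).

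MRPS17 (ENSG00000239789, chr7:55951877-55956500), the counterpart of bacterial S17, measured 20.5, 14.3 and 12.4 TPM with the MEN1 hairpin and 37.6, 37.7 and 38.2 in the controls. The groups did not overlap, and the depleted libraries were the more spread (log2 fold change -1.25, SE 0.160, adjusted p 0.000481 in limma). MRPS17 overlaps NIPSNAP2 on the same strand, which was expressed at 66.9 TPM and fell too (log2 fold change -0.91, adjusted p 0.000402 in limma), and how reads were divided between them is not given in the sources used here. Same-strand overlaps with a gene holding at least 5% of the member's TPM were found for 5 other members, MRPL28, MRPL33, MRPL53, MRPS6 and MRPS28. MRPS24 (ENSG00000062582, chr7:43866558-43869893), the counterpart of bacterial S3, measured 87.9, 74.8 and 63.0 TPM against 151, 152 and 144 TPM. All depleted libraries lay below all controls, at a mean of 50.5% (log2 fold change -0.99, adjusted p 0.000271 in limma). The rest of the small-subunit genes that fell ranged from MRPS2, at -0.80, to MRPS18B, at -0.24.

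The exception in the small subunit was MRPS10 (ENSG00000048544, chr6:42206807-42217861), the counterpart of bacterial S10. It measured 184, 180.1 and 174 TPM with the MEN1 hairpin and 117, 128 and 133 TPM in the controls. Every depleted library was above every control, at 143% of the control mean (log2 fold change 0.51, SE 0.0640, adjusted p 0.000426 in limma).

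Bacterial S18 has several relatives in the mammalian mitochondrial ribosome, encoded by separate genes, and 2 of the 3 fell on TPM. MRPS18A, placed in the large subunit, had 76.5 ± 4.30 TPM with the MEN1 hairpin and 95.9 ± 7.95 in controls, and fell (log2 fold change -0.32, adjusted p 0.0104 in limma). MRPS18B, in the small subunit, had 115 ± 4.60 against 136 ± 1.12 TPM and fell (log2 fold change -0.24, adjusted p 0.00734), but not under median-of-ratios scaling (-0.15, adjusted p 0.0558 in limma). MRPS18C, also in the small subunit, had 60.7 ± 4.53 against 57.6 ± 0.856 TPM, a log2 fold change of 0.07 that did not pass (adjusted p 0.411 in limma). The difference between these 3 changes was not tested. The direction of MRPS18C was not fixed, since it was -0.13 on the deposited coverage (adjusted p 0.122 in limma).

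**Figure D3:**
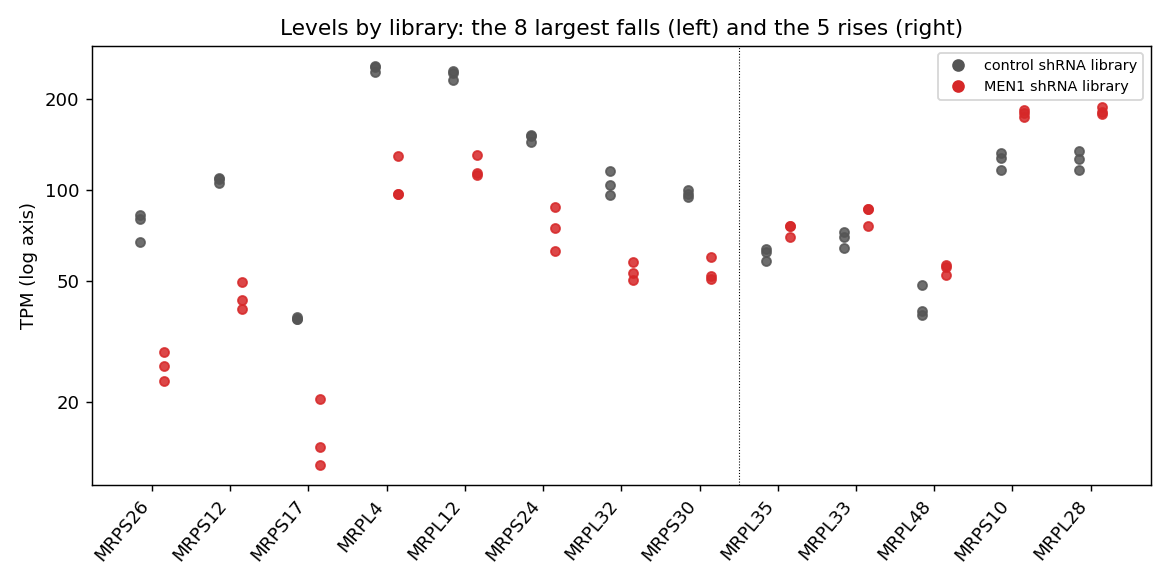
TPM on a log axis in each library for the 8 largest falls and the 5 rises among the mitoribosomal genes, 1 point per library, red for MEN1 shRNA and grey for control. In each of the 13 genes the 3 red points and the 3 grey points do not overlap.

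In the large subunit, 29 of 51 genes fell (56.9%, against 31.5% of all genes), 4 rose and 18 did not pass. The median log2 fold change was -0.27, and summed TPM was 80.9% of control. The ratio of large-subunit to small-subunit TPM was 2.40, 2.53 and 2.49 with the MEN1 hairpin and 2.41, 2.34 and 2.28 in the controls. These ranges overlapped by 1 depleted library. The largest fall in the large subunit was that of MRPL4 (ENSG00000105364, chr19:10251901-10260055), the counterpart of bacterial L4, a protein that lines the inside of the exit tunnel. It measured 129.7, 97.5 and 96.8 TPM with the MEN1 hairpin and 255, 257 and 245 TPM in the controls. Even the highest depleted library lay well below the lowest control, and the mean was 42.8% of control (log2 fold change -1.23, SE 0.112, adjusted p 0.000109 in limma).

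The stalk of the large subunit recruits the translation factors, and its 3 genes summed to 60.0% of control. MRPL12 (ENSG00000262814, chr17:81703367-81707517), the mitochondrial L7/L12 protein, measured 130.2, 114 and 112 TPM with the MEN1 hairpin and 232, 248 and 244 TPM in the controls. The groups were far apart, with 49.2% of the control level left (log2 fold change -1.02, SE 0.0716, adjusted p 4.36e-05 in limma). MRPL11, at the stalk base, had 53.6 ± 6.44 TPM with the MEN1 hairpin and 82.4 ± 4.38 TPM in controls, and also fell (log2 fold change -0.62, adjusted p 0.001 in limma). MRPL10, which holds the L7/L12 copies, did not pass, at 46.4 ± 3.14 against 40.8 ± 10.7 TPM (log2 fold change 0.21, adjusted p 0.364). Its control value rested on 1 library at 28.5 TPM beside 47.1 and 46.9, and without that library the log2 fold change was -0.02.

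MRPL32 and MRPS30 complete the 8 largest falls. MRPL32 (ENSG00000106591, chr7:42932376-42948958) is matured by the mitochondrial m-AAA protease before it is built into the ribosome. It measured 53.2, 50.8 and 57.9 TPM against 96.5, 104 and 116 TPM, without overlap (log2 fold change -0.95, SE 0.0852, adjusted p 0.000101 in limma). MRPS30 (ENSG00000112996, chr5:44808947-44820428), a mitochondria-specific protein of the large subunit, measured 60.1, 52.0 and 51.1 TPM against 96.8, 100.5 and 95.2 TPM. Its groups were likewise apart (log2 fold change -0.83, SE 0.0753, adjusted p 0.000105 in limma). Together the 8 genes with the largest falls gave 572 of the 1555 TPM by which the summed level dropped, or 36.8%.

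Around the tunnel exit, where the new protein leaves and meets the inner membrane, 4 of 8 genes fell and none rose. The median was -0.23, and over all genes tested 31.5% fell. MRPL45, which tethers the ribosome to the membrane, fell slightly, from 92.9 ± 1.65 TPM in controls to 78.8 ± 3.09 (log2 fold change -0.23, adjusted p 0.00947 in limma). It did not pass under median-of-ratios scaling (-0.15, adjusted p 0.0518), which leaves 3 of the 8 lower. MRPL44, which carries a ribonuclease III-like fold, fell to 44.7 ± 2.14 TPM from 55.4 ± 0.627 (log2 fold change -0.30, adjusted p 0.00429 in limma). Elsewhere in the large subunit, MRPL58, a peptidyl-tRNA hydrolase that also releases stalled chains, had 81.7 ± 5.67 against 87.9 ± 6.86 TPM and did not pass (log2 fold change -0.10, adjusted p 0.307).

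MRPL28, MRPL33, MRPL35 and MRPL48 were the large-subunit genes that rose. MRPL28 (ENSG00000086504, chr16:366969-371289), the counterpart of bacterial L28, measured 188, 181 and 178 TPM with the MEN1 hairpin and 135, 116 and 126 TPM in the controls. No depleted library came near the controls, and the mean was 145% of control (log2 fold change 0.53, SE 0.0674, adjusted p 0.000441 in limma). It shares its strand and part of its span with PGAP6, which also rose (log2 fold change 0.31, adjusted p 0.00968 in limma).

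The rises of the other 3 were smaller. MRPL48, a mitochondria-specific subunit, measured 56.7, 52.7 and 55.8 TPM against 38.7, 48.8 and 40.0 TPM (log2 fold change 0.37, adjusted p 0.0125 in limma). MRPL33, the counterpart of bacterial L33, measured 76.0, 86.8 and 86.8 TPM against 72.7, 70.2 and 64.3 TPM (log2 fold change 0.26, adjusted p 0.0229 in limma). Its lowest depleted library was only just above its highest control, and its span overlaps BABAM2, which went the other way (log2 fold change -0.56). MRPL35, the counterpart of bacterial L35, measured 70.2, 76.1 and 76.1 TPM against 64.2, 58.6 and 62.4 TPM, also without overlap (log2 fold change 0.26, adjusted p 0.0112 in limma). MRPL48 did not pass on the deposited coverage (0.20, adjusted p 0.0927), and MRPL33 did not pass when any 1 of 4 libraries was left out, MEN1 shRNA replicates 2 and 3 and control replicates 2 and 3, with adjusted p up to 0.0771.

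**Figure D4:**
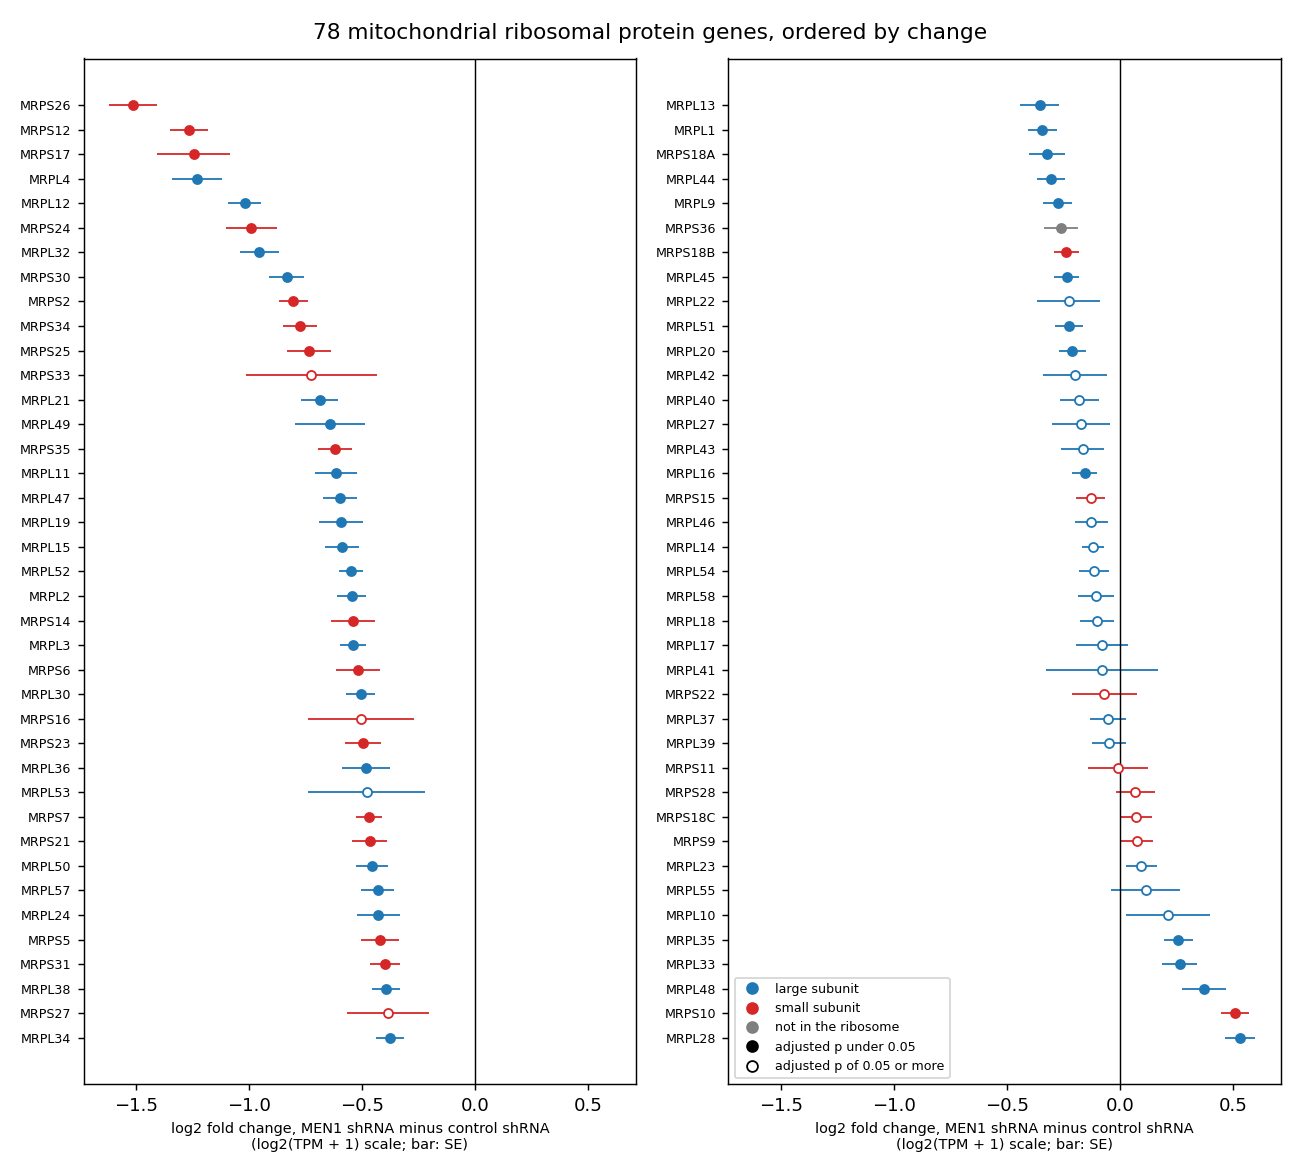
Log2 fold change (MEN1 shRNA minus control, on log2(TPM + 1)) of each of the 78 mitoribosomal genes in order, by subunit, with error bars of 1 SE. Values run from -1.51 for MRPS26 to 0.53 for MRPL28, and 67 of the 78 lie below 0.

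Several abundant members had small changes that only just passed. MRPL16 had 251 ± 4.46 TPM with the MEN1 hairpin and 280 ± 13.9 TPM in controls (log2 fold change -0.15, adjusted p 0.0495 in limma). MRPL20 had 191 ± 11.1 against 221 ± 3.29 TPM (log2 fold change -0.21, adjusted p 0.0185), and MRPL51 had 191 ± 8.40 against 223 ± 11.6 TPM (log2 fold change -0.22, adjusted p 0.0183). MRPL3, the most abundant in controls, fell more clearly, to 193 ± 9.50 TPM from 281 ± 9.41 (log2 fold change -0.54, adjusted p 0.000217 in limma). MRPL16, MRPL20 and MRPL51 each failed the threshold under several alternatives, with adjusted p up to 0.307, 0.135 and 0.122. MRPS36, whose product is not part of the ribosome, had 29.8 ± 0.681 against 35.9 ± 2.80 TPM and passed narrowly (log2 fold change -0.26, adjusted p 0.0208). It kept its call in 13 of 19 alternatives, with adjusted p up to 0.126 in limma. MRPS36 did not pass without MEN1 shRNA replicate 3 (adjusted p 0.0547) or control replicate 1 (0.0626). MRPL16 did not pass without any 1 library other than control replicate 1, MRPL20 without MEN1 shRNA replicate 2 or 3 or control replicate 2 or 3, and MRPL51 without MEN1 shRNA replicate 2 or control replicate 1 or 2. Over these, limma's adjusted p ran from 0.0877 to 0.145 for MRPL16, from 0.0509 to 0.0629 for MRPL20 and from 0.0548 to 0.0639 for MRPL51.

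Among the 27 genes that did not pass, several had a large spread between libraries, whether or not their fold change was near 0. These were singled out after their values were seen. MRPS33 measured 27.6, 21.4 and 11.5 TPM against 37.3, 25.8 and 34.2 TPM, overlapping by 1 library (log2 fold change -0.72, SE 0.289, adjusted p 0.0677 in limma). MRPS16 had 1 low library, at 76.9, 39.0 and 74.9 TPM against 84.4, 86.6 and 89.2 TPM (log2 fold change -0.50, SE 0.236, adjusted p 0.109). In MRPL41 the lowest control had 39.6 TPM and the highest 78.2 TPM (log2 fold change -0.08, SE 0.248, adjusted p 0.820). These 3 genes therefore have wide errors, and not passing does not show that they were unchanged.

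By origin, 30 of 48 genes with a bacterial counterpart fell (62.5%, against 31.5% of all genes) and 4 rose. Their median log2 fold change was -0.37. Of the 29 mitochondria-specific genes, 15 fell (51.7%) and 1 rose, with a median of -0.38. Summed TPM was 79.2% of control for the former and 80.2% for the latter, so the 2 classes lay close together, though the difference between them was not tested.

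Subunits that carry other symbols were followed as well. DAP3, a GTP-binding protein of the small subunit, fell to 131 ± 6.83 TPM from 176 ± 7.78 (log2 fold change -0.43, adjusted p 0.000896 in limma). PTCD3, a pentatricopeptide protein of the small subunit, fell to 53.6 ± 1.07 TPM from 78.2 ± 1.43 (log2 fold change -0.54, adjusted p 0.000167). AURKAIP1 and CHCHD1 in the small subunit and GADD45GIP1 in the large subunit did not pass, at 0.01, 0.07 and 0.14. With these, 2 of 5 further subunit genes fell and none rose, with a median of 0.01. The share lower was 40.0%, near the 31.5% of all genes tested.

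Factors that build the mitochondrial ribosome moved mostly the same way. Of 29 assembly genes, 19 fell (65.5%, against 31.5% of all genes), 2 rose and 8 did not pass. Their median was -0.39 and their summed TPM was 72.7% of control. MRM1, which methylates the large ribosomal RNA, fell to 6.91 ± 1.37 TPM from 25.8 ± 1.04 (log2 fold change -1.77, adjusted p 5.1e-05 in limma). ERAL1, a chaperone of the small-subunit RNA, changed by -0.88, C1QBP by -0.81 and the GTPase NOA1 by -0.70 on the log2 scale, all past the threshold. The 2 that rose, named after their values were seen, were NGRN at 0.45 and TRUB2 at 0.34.

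The translation factors that work on this ribosome followed, with 12 of 16 genes lower (75.0%, against 31.5% of all genes) and 1 higher. Their median was -0.44. The elongation factor TUFM fell to 236 ± 12.5 TPM from 359.9 ± 4.46 (log2 fold change -0.61, adjusted p 0.000114 in limma), and its exchange factor TSFM changed by -0.84. GFM1, which moves the ribosome along the messenger RNA, changed by -0.52, and OXA1L, which inserts new chains into the inner membrane, by -0.69. The gene that rose was the initiation factor MTIF3 at 0.40, named after its values were seen.

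A list of genes for mitochondrial RNA synthesis and maturation and for replication of mitochondrial DNA had 14 of 17 lower and none higher. The share lower was 82.4%, against 31.5% of all genes, and the median was -0.58. The replication genes in this list are POLG, POLG2 and TWNK, all 3 of which fell. HSD17B10, a subunit of the mitochondrial RNase P, fell to 78.3 ± 4.45 TPM from 208 ± 8.15 (log2 fold change -1.40, adjusted p 1.6e-05 in limma). POLG2, the accessory subunit of the mitochondrial DNA polymerase, changed by -1.71, PNPT1 by -0.86 and LRPPRC, which stabilises mitochondrial messenger RNA, by -0.75. Of the 13 protein-coding genes of the mitochondrial genome, which this ribosome translates, 9 were listed at or close to 0 in all libraries, although all cells use them. The other 4 were tested and 0 passed in limma, with 1 of them, MT-ATP6, under an unadjusted p of 0.05 (log2 fold change -0.21, adjusted p 0.0547). These tables therefore give little on the ribosome's own templates.

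Cytosolic ribosomal protein genes gave a comparison. Of 77 tested, 45 fell, 1 rose and 31 did not pass, with a median of -0.24 and a summed TPM at 83.6% of control. By count lower, 58.4% of the cytosolic and 59.0% of the mitochondrial genes passed, against 31.5% of all genes tested. The difference between the lists was not tested. A fall of at least 2-fold past the threshold was reached by 1 of the 77 cytosolic and 5 of the 78 mitochondrial genes. Over all genes tested the share was 6.9%, so the mitochondrial count lies near the background.

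Known regulators of genes for mitochondrial proteins were read from the same fit. MYC measured 91.9, 63.7 and 66.8 TPM with the MEN1 hairpin and 227, 239.6 and 231 TPM in the controls. Its level was 31.9% of control, with the groups far apart (log2 fold change -1.65, adjusted p 6.4e-05 in limma). The coactivator PPARGC1B fell to 1.56 ± 0.237 TPM from 5.00 ± 0.425 (log2 fold change -1.23, adjusted p 0.000227). GABPB1, PPRC1 and ESRRA changed by -0.41, -0.32 and -0.19 and passed. NRF1 at 0.07, GABPA at 0.15 and YY1 at -0.11 did not pass, and PPARGC1A was close to 0 and was not tested. Whether any of these bears on the mitoribosomal genes was not tested.

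Promoter letters were counted in the RefSeq windows, of which 85 matched 69 of the 78 genes. MRPL10, MRPL13, MRPL15, MRPL2, MRPL21, MRPL23, MRPL35, MRPS28 and MRPS36 had no entry. All searches covered both strands. The YY1 letters AAGATGGC were found in 27.1% of the mitoribosomal windows, in 5.15% of the windows of all genes tested and in 2.89% of all 35116 windows. The GABP/ETS letters CCGGAAG were found in 38.8%, 18.4% and 10.3%. The NRF1 letters GCATGCGC were rarer, at 7.06%, 5.25% and 3.05%. SP letters, GGGCGG, were found in 60.0%, 66.9% and 45%, and the E-box letters CACGTG in 10.6%, 9.97% and 7.26%. A match is a description of letters, not a binding site.

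**Figure D5:**
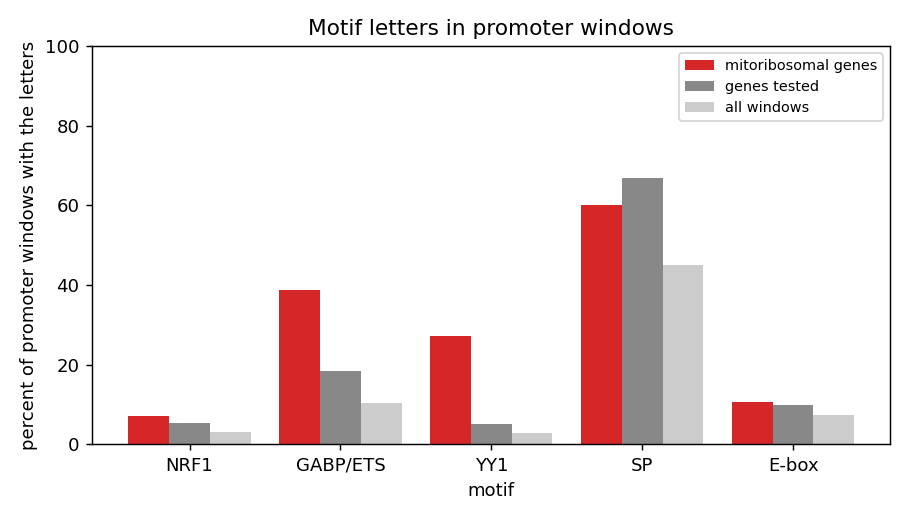
Percent of promoter windows that hold each set of letters on either strand, for the mitoribosomal genes, all genes tested and all RefSeq windows. The YY1 bar of the mitoribosomal genes stands at 27.1% against 5.15% of the windows of genes tested.

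The YY1 letters include ATG, and their place matters for reading them. Matches were counted per window, so the sites of MRPL47 and MRPS12, which lie in overlapping windows, were counted repeatedly. Of 24 matches, 16 lay after the transcription start and 18 on the strand of the gene. In 13 of those 18 the ATG of the match was an annotated start codon in GENCODE v29, so there the letters are also the beginning of the coding sequence. By response, the YY1 letters occurred in 16 of 41 genes that fell and in 5 of 28 others. GABP/ETS letters occurred in 15 of 41 and 15 of 28. E-box letters, the core sequence recognised by MYC, occurred in 4 of 41 genes that fell and 5 of 28 others. These counts are descriptions, and the differences were not tested.

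Many of the genes have a tested gene that starts close by on the opposite strand. Such a start within 1000 bases was found for 28 of 78 (35.9%), against 21.7% of all genes tested. The start was taken as the outer end of the listed span, and the genes were not required to point away from each other. MRPL46 and MRPS11 are the only members paired with each other, 63 bases apart, and neither passed, at -0.13 and -0.01. Of the 26 partners outside the list, 9 fell, 4 rose and 13 did not pass, with a median of -0.15. Of 18 partners of genes that fell, 5 fell as well and 2 rose. Over all genes tested 31.5% fell and 22.1% rose, so the counts of partners that fell lie near the background. SARS2, which starts 181 bases from MRPS12, changed by -0.25 and did not pass (adjusted p 0.065 in limma). FAU, 6 bases from MRPL49, changed by 0.04 while MRPL49 fell by 0.64 on the log2 scale. The largest partner change was in NDUFB5, a complex I gene 41 bases from MRPL47. It measured 13.3, 16.3 and 14.7 TPM with the MEN1 hairpin and 51.7, 80.9 and 87.5 TPM in the controls (log2 fold change -2.21, adjusted p 8.62e-05 in limma), while MRPL47 changed by -0.60. TWNK, the mitochondrial DNA helicase, 148 bases from MRPL43, changed by -1.41 while MRPL43 did not pass at -0.16. These pairs were named after their values were seen.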

How the data were processed

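Poly(A) RNA of 6 HUDEP-2 libraries was examined, 3 per group, with groups taken from the sample titles. Per the submitters' processing notes, FastQC, Trimmomatic, STAR 2.7.1a, Picard 2.20.4 and StringTie 2.0.4 were used with hg38. For the annotation and any use of strand, nothing was given in the sources used here. The deposited tables list, per the file headers, TPM, FPKM and coverage for each gene. In control replicate 2 the deposited TPM and coverage are treated as a score because 3 values lie just below 0, and these were set to 0. No read counts were recovered, so no count model was used.

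Genes that reached 1 TPM in 3 or more of the 6 libraries were tested on log2(TPM + 1), so the fold change of low genes is understated. The test was limma's (version 3.58.1, R 4.3.3), 2-sided, with lmFit and with eBayes allowing a trend of variance with level. Its p-values were adjusted by Benjamini-Hochberg across every gene tested, with 0.05 as the threshold, and every adjusted p printed comes from limma. The step was tested on simulated data. Tables were made in Python 3.11.15 with NumPy 2.4.6, pandas 2.3.3 and SciPy 1.17.1, and figures with matplotlib 3.10.9. Members, gene lists and tests were chosen with earlier results of these data known. Single members named are the 8 highest and 8 lowest log2 fold changes past the threshold, the 4 highest and 4 lowest control levels, and 13 chosen by role. From other lists all further subunits and regulators are named, and elsewhere up to 4 genes that passed, by lowest adjusted p. Some genes outside this rule are said to be named after their values were seen. Others outside it, such as MRPS2, MRPS22 and MRPS31, carry no such statement and were likewise not fixed by the rule. Promoter windows are those of RefSeq on GRCh38.p14, matched by symbol. Alternatives covered unit, filter, pseudocount, scaling, variance model, replicate block and single libraries.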

Additional observations from a re-analysis of the deposited data

How the results depend on the processing

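The counts and the MEN1 fold change, 5 summary results, were recomputed under all 19 alternatives, the median of the members under 18 and the ratio of summed TPM under 10. All kept their direction where they were run. The values that moved most were as follows. The median log2 fold change of the mitoribosomal genes, -0.37 as reported, was -0.33 on FPKM, -0.28 with median-of-ratios scaling, -0.29 with quantile normalization and -0.30 without globin and mitochondrial genes. The ratio of summed TPM, 0.796 as reported, was 0.771 on coverage, 0.846 with median-of-ratios scaling and 0.834 without globin and mitochondrial genes. At an adjusted p of 0.01, 2 genes were higher in place of 5, and 40 were lower in place of 46. Leaving out 1 library at a time gave 44 to 47 genes lower, 4 to 5 higher, 48 to 52 past the threshold, 6577 to 7542 over all genes, a median of -0.37 to -0.35 and a ratio of 0.786 to 0.803.

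Of 570 comparisons for 30 named members, 519 kept their call, 48 lost it, 1 gained it and 2 changed sign. The sign changes were in genes that did not pass, MRPS18C at -0.13 on coverage and MRPL10 at -0.0204 without control replicate 3. Leaving out each library in turn, MRPL10 ranged from -0.0204 to 0.33. In every alternative, 38 members were lower and 2 higher past the threshold. The matching share over all genes tested is not given here, so these counts cannot be read as particular to the members. Deviations of same-numbered libraries from their group means correlated at 0.0171, -0.0265 and -0.0124. These values show no shared shift, but cannot tell whether same-numbered libraries were grown or prepared together. With a replicate block 49 members passed, 45 lower and 4 higher, and 7012 of all genes passed.

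Without read counts, sampling error cannot be separated from replicate spread. The deposited coverage per base did not follow TPM and was not used to rank support. In its lowest library it was 2.75 for MRPS6 and 3.34 for MRPS22, at control means of 56.6 and 146 TPM. For MRPS14, at 16.4 TPM in controls, it was 24.1. TPM gives shares of a library, so no absolute change per cell can be read. How reads shared with overlapping genes or with the 81 pseudogenes that carry member names were divided was not tested.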

Other observations

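Pseudogenes named after mitoribosomal genes stayed low. Of 81 such genes, MRPS31P5 and MRPL45P2 passed the filter on low values, and no library had more than 7.90 TPM for any of the 81. MRPS31P5 had 4.12 ± 1.10 TPM with the MEN1 hairpin and 4.35 ± 0.406 TPM in controls (SD, n = 3 each), a log2 fold change of -0.08 (adjusted p 0.721 in limma). MRPL45P2 had 6.62 ± 1.38 against 6.64 ± 0.351 TPM, a log2 fold change of -0.02 (adjusted p 0.928 in limma). The functional MRPS31 gene fell by 0.40 on the log2 scale and MRPL45 by 0.23, both past the threshold.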
